A study of Mus musculus with 3 samples.

Results

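The mitochondrial genome of the mouse encodes 6 subunits of the respiratory chain's last steps: mt-Cytb of complex III, mt-Co1, mt-Co2 and mt-Co3 of complex IV, and mt-Atp6 and mt-Atp8 of the ATP synthase. These genes were chosen by name and located on the mitochondrial chromosome by their annotated positions. They are 6 of 37 genes annotated there, beside 7 complex I genes, 2 ribosomal RNA genes and 22 tRNA genes. The RNA came from 2-cell mouse embryos, collected as litters at embryonic day 1.5 and lysed whole. The design has 1 group of 3 litters, numbered 1 to 3, with no contrast between conditions. All mothers were LSD1 FL/FL and ZP3::Cre negative, so they carried the floxed allele of a histone demethylase gene without the Cre transgene of growing oocytes, and were of mixed strain. The fathers were wild type and are given as CB6 in one label and C57/Bl6J in another. Each library holds the pooled embryos of a litter, whose RNA went through SPIA, a linear amplification of cDNA at constant temperature. More embryos and more RNA per embryo cannot be told apart in such pools.

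Complex III passes electrons from ubiquinol to cytochrome c, complex IV passes them on to oxygen, and the ATP synthase uses the resulting proton gradient to make ATP. Mitochondrial DNA is transcribed into long RNAs that span many genes. Most protein and ribosomal RNA genes are separated by tRNA genes, and cutting the tRNAs out of the long RNA frees the messenger RNAs between them. The stretch from mt-Atp8 through mt-Atp6 to mt-Co3 has no tRNA gene inside it: mt-Atp8 and mt-Atp6 are known to share a messenger RNA, and mt-Co3 is known to be cut from it. The egg supplies the embryo's mitochondria, and the early cleavage embryo holds a large store of them.

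All 6 genes lie on the same strand, written here as + (GENCODE M21, GRCm38; the listed lengths are the whole annotated coding exons). The order along the chromosome is mt-Co1 at chrM:5328-6872, mt-Co2 at chrM:7013-7696, mt-Atp8 at chrM:7766-7969, mt-Atp6 at chrM:7927-8607, mt-Co3 at chrM:8607-9390 and mt-Cytb at chrM:14145-15288. Their lengths are 1545, 684, 204, 681, 784 and 1144 bases. The last 43 bases of mt-Atp8 are the first 43 of mt-Atp6, and mt-Atp6 and mt-Co3 share a single base. Both overlaps are shown because the results at these ends turn on them. Capitals in the first pair mark the 43 shared bases. Capitals in the second pair mark the last codon of mt-Atp6 and the first codon of mt-Co3. All sequences are from the annotation's transcripts, + strand, 5′ to 3′.
mt-Atp8 bases 115 to 204: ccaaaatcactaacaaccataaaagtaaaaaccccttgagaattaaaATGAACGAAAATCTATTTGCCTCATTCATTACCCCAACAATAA
mt-Atp6 bases 1 to 90: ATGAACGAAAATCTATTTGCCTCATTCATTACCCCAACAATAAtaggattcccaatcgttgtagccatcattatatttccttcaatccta
mt-Atp6 bases 622 to 681: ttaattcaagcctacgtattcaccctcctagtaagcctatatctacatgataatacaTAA
mt-Co3 bases 1 to 60: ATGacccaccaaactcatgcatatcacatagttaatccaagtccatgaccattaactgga

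The other gene ends differ in what follows them. mt-Co2 is followed by mt-Tk, the lysine tRNA gene, whose 65 bases stand between mt-Co2 and mt-Atp8. mt-Co1 is followed by mt-Ts1, a serine tRNA gene on the opposite strand. mt-Co3 is followed by mt-Tg and mt-Cytb by mt-Tt, glycine and threonine tRNA genes on their own strand. The last bases of these genes are shown with the stop codon, or what the gene holds of it, in capitals. mt-Co1 and mt-Co2 end in a whole stop codon. mt-Co3 and mt-Cytb end in a lone T, and in such genes the stop codon is known to be completed by polyadenylation.
mt-Co1 bases 1486 to 1545: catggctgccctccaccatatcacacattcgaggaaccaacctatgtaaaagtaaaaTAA
mt-Co2 bases 625 to 684: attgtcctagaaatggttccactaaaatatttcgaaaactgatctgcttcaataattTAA
mt-Co3 bases 725 to 784: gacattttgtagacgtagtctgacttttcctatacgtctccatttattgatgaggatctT
mt-Cytb bases 1085 to 1144: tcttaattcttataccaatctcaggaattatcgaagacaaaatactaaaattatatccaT
mt-Tk bases 1 to 65: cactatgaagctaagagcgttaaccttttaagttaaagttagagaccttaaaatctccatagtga

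The measurement was read coverage per base, made of ungapped alignments of 72 bases whose strand is not known. Nuclear alignments numbered 34014013, 32431630 and 40474940 in litters 1 to 3. Mean coverage of the mitochondrial chromosome was 65539, 57330 and 63813 alignments per base. The 6 genes span 4998 of its 16299 bases, or 30.7%, and held 19.8%, 17.8% and 15.2% of its aligned bases (17.6% ± 2.33, SD, n = 3). Every possible alignment start within each of the 6 genes was used in all 3 litters, and the tenth of starts with the most alignments held 23.8% to 31.0% of a gene's alignments on average. The files hold no molecular identifiers, so intervals and spreads cannot separate amplified copies from separate RNA molecules. The labels call the litters separate collections, and p-values compare these 3 libraries. The exact two-sided sign-flip test gives p = 0.25, its smallest, whenever all 3 agree in direction, whatever their spread.

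mt-Cytb, mt-Atp6 and mt-Co1 were the most highly covered of the 6 genes, mt-Co2 was intermediate, and mt-Atp8 and mt-Co3 were the lowest. A gene's level is its mean coverage, without bases it shares with another gene, as a ratio to the chromosome's mean in the same litter, and is thus a value per base. For mt-Cytb, the only complex III subunit made in mitochondria and a carrier of heme groups, it was 0.808, 0.864 and 0.689 in litters 1, 2 and 3 (0.787 ± 0.0894, SD, n = 3). For mt-Atp6, a subunit of the proton channel of the ATP synthase, it was 0.789, 0.890 and 0.661 (0.780 ± 0.115). Against the chromosome's mean, both genes were the highest in litter 2 and the lowest in litter 3. That mean includes the ribosomal RNA gene mt-Rnr2, whose level was 4.48, 4.84 and 5.80. Against the 13 protein genes, mt-Cytb was the highest in litter 3 and mt-Atp6 the lowest in litter 1. For mt-Co1, the catalytic core of complex IV, the level was 0.825, 0.524 and 0.543 (0.631 ± 0.169). Litter 1 alone was high, and the other litters lay close to each other.

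For mt-Co2, the subunit that takes electrons from cytochrome c, the level was 0.426, 0.441 and 0.353 (0.406 ± 0.0471). For mt-Atp8, a small membrane subunit of the ATP synthase, it was 0.248, 0.305 and 0.216 (0.256 ± 0.0451) over its 161 own bases. With the shared bases included it was 0.406 ± 0.0859. For mt-Co3, a structural core subunit of complex IV, it was 0.211, 0.179 and 0.155 (0.182 ± 0.0276). The level of mt-Co3 was below that of mt-Atp8 in 3 of 3 litters and below all the other members as well. The genes of the 3 complex IV subunits, which the enzyme holds in equal number, stood at unequal levels of coverage. mt-Co1 was above mt-Co2 and mt-Co2 above mt-Co3 in every litter. Whether their RNA molecules differed in number was not tested.

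**Figure D1:**
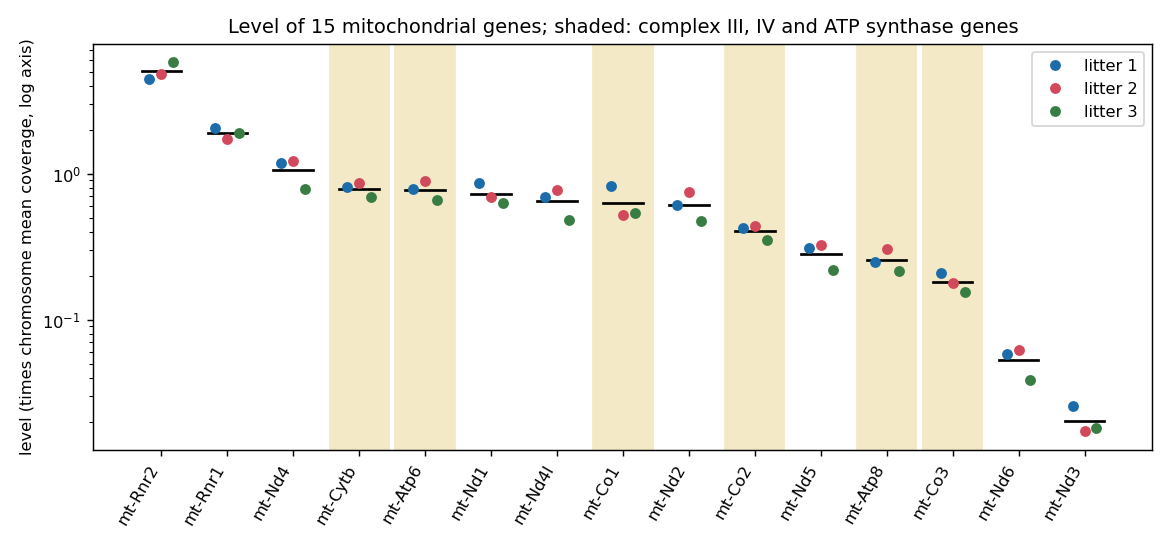
Level of 15 mitochondrial genes (13 protein genes and 2 ribosomal RNA genes) in each of 3 litters, as mean coverage over a gene's own bases divided by the mean of the chromosome, on a log axis; points are litters and shaded columns are the complex III, IV and ATP synthase genes. mt-Cytb (mean 0.787), mt-Atp6 (0.780) and mt-Co1 (0.631) lie near each other, and mt-Co3 (0.182) is the lowest of the 6.

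The order by mean was mt-Cytb, mt-Atp6, mt-Co1, mt-Co2, mt-Atp8 and mt-Co3. mt-Cytb and mt-Atp6 did not differ beyond their spread: the log2 ratio was 0.02 ± 0.05, with mt-Cytb higher in 2 of 3 litters. mt-Atp6 and mt-Co1 did not either (0.33 ± 0.42, mt-Atp6 higher in 2 of 3). The steps from mt-Co1 to mt-Co2 (0.61 ± 0.35), from mt-Co2 to mt-Atp8 (0.67 ± 0.13) and from mt-Atp8 to mt-Co3 (0.49 ± 0.26) had the same direction in 3 of 3 litters. The step from mt-Co2 to mt-Atp8 rests on leaving out the 43 shared bases: over all bases of mt-Atp8, at 0.381, 0.502 and 0.336, the log2 ratio was 0.02 ± 0.18, and mt-Co2 was higher in 2 of 3 litters. Among the 13 protein genes, mt-Co2 ranked 8th, mt-Atp8 10th and mt-Co3 11th in every litter. mt-Co1 ranked 3rd, 7th and 5th in litters 1 to 3, mt-Atp6 5th, 2nd and 3rd, and mt-Cytb 4th, 3rd and 2nd. The 7 complex I genes ranged from 0.0204 (mt-Nd3) to 1.06 (mt-Nd4), so the 6 genes lay within their range.

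By the root mean square difference of log2 level over 3 litters, among the 14 other protein and ribosomal RNA genes, mt-Atp6 and mt-Cytb were each the most like the other (0.05), although they lie in different parts of the chromosome. mt-Atp8 was most like mt-Nd5 (0.19) and mt-Co1 most like mt-Nd1 (0.27). mt-Co3 was most like mt-Atp8 (0.54) and mt-Co2 most like mt-Nd5 (0.55).

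Counted as alignments lying wholly inside the gene, mt-Co1 held 1153768, 642072 and 740440 in litters 1 to 3 and mt-Cytb 840918, 786373 and 697883. mt-Atp6 held 463979, 459625 and 378547, mt-Co2 260061, 237676 and 210766, and mt-Co3 149066, 111068 and 107267. The short mt-Atp8 held 38374, 42923 and 33004. Per kb of gene length and per 1000000 nuclear alignments, the values were 19293 ± 3661 for mt-Cytb, 18192 ± 3880 for mt-Atp6 and 15536 ± 5580 for mt-Co1 (SD, n = 3). They were 9835 ± 1938 for mt-Co2, 5338 ± 1256 for mt-Atp8 and 4446 ± 1107 for mt-Co3. Dividing by length lowers short genes the most, since the 204 bases of mt-Atp8 hold only 133 possible starts of an alignment wholly inside. The order of the 6 genes on this scale was that of the levels. Litter 3 was the lowest for all 6 genes on this scale. The nuclear count includes alignments at nuclear copies of mitochondrial sequence, described below, and was not corrected for them. The copy on chromosome 1 that matches mt-Co2 to mt-Co3 held 473, 376 and 352 starts per base in litters 1 to 3. The scale is therefore not independent of the mitochondrial signal.

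Coverage was far from even within each gene, and the shape of each gene returned in every litter. It was read in steps of 50 bases from the first base of the gene, and each value below is a step's mean coverage relative to the chromosome mean. Over the steps of a gene, the correlation of log2 coverage between any pair of litters was 0.962 to 1.00 for the 6 genes, with 5 to 31 steps a gene that share their library and overlap by alignment length. The highest step exceeded the lowest by 86.7 ± 8.87 times in mt-Cytb, 57.2 ± 8.64 times in mt-Atp6, 45.9 ± 6.03 times in mt-Co1, 18.6 ± 7.60 times in mt-Atp8, 14.5 ± 2.25 times in mt-Co3 and 9.40 ± 3.79 times in mt-Co2 (SD, n = 3). Much of this lay at the gene ends: without steps within 72 bases of an end, 1 alignment length, the median over genes was 6.83 in place of 32.4 (means over litters), with 11.6 in mt-Co1, 11.6 in mt-Cytb, 6.59 in mt-Atp6, 5.58 in mt-Co3 and 3.06 in mt-Co2. mt-Atp8 is too short to be read this way.

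mt-Co1 had a pair of humps with a trough between them. Its first step, bases 1 to 50, stood at 0.0550, 0.0274 and 0.0299 in litters 1 to 3. The first hump reached 1.17, 0.816 and 0.773 at bases 351 to 400. The trough at bases 551 to 600 lay at 0.186, 0.129 and 0.120. The second hump was the higher, with 2.14, 1.35 and 1.48 at bases 1101 to 1150, in the last part of the gene. The last step, bases 1501 to 1545, fell to 0.137, 0.0272 and 0.0585. Litter 1 was the highest at each of these places, in the trough as on the humps. The sequence of the highest step is shown with G and C in capitals, chrM:6428-6477.
mt-Co1 bases 1101 to 1150: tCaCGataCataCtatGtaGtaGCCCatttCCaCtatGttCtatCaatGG

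mt-Cytb rose to a single broad hump and then declined to its end. The first step stood at 0.0956, 0.106 and 0.0725. The highest was bases 451 to 500 with 1.65, 1.69 and 1.42, except that in litter 1 the step before it was slightly higher (1.66). The last step, bases 1101 to 1144, was at 0.0191, 0.0177 and 0.0183, the lowest last step of the 6 genes by mean (mt-Atp6 was lower in litter 3). mt-Co2 peaked early, at bases 151 to 200 with 0.734, 0.852 and 0.610, and declined to 0.119, 0.0628 and 0.0721 in bases 651 to 684. mt-Co3 peaked at bases 201 to 250 with 0.431, 0.373 and 0.326 (bases 251 to 300 in litter 1, at 0.434). It then declined to 0.0838, 0.0726 and 0.0507 at bases 651 to 700 and to 0.0349, 0.0265 and 0.0193 in the last step.

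In mt-Atp8 coverage climbed along the whole gene. It was 0.0763, 0.0502 and 0.0516 in bases 1 to 50 and 0.146, 0.159 and 0.120 in bases 51 to 100. It reached 0.426, 0.565 and 0.386 in bases 101 to 150 and 0.829, 1.16 and 0.744 in bases 151 to 200, most of which belong to mt-Atp6 as well. The highest step was the short remainder, bases 201 to 204, with 0.946, 1.36 and 0.848. It lies wholly inside mt-Atp6, and the ratio of 18.6 between highest and lowest step rests on it. Litter 1 was the highest at the start of mt-Atp8 and litter 2 at its end.

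mt-Atp6 began high, inside mt-Atp8, at 0.887, 1.26 and 0.793 in its first step, and its highest step differed between litters. At bases 101 to 150 the values were 1.13, 1.73 and 0.999, and at bases 351 to 400 they were 1.25, 1.01 and 1.06. Litter 2 was highest at the first of these places, and litters 1 and 3 at the second. Between them, at bases 251 to 300, the values were 0.818, 1.02 and 0.650. The last step, bases 651 to 681, fell to 0.0265, 0.0272 and 0.0175. Both steps that reached the maximum are shown with G and C in capitals, chrM:8027-8076 and chrM:8277-8326.
mt-Atp6 bases 101 to 150: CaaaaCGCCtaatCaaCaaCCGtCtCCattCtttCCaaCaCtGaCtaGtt
mt-Atp6 bases 351 to 400: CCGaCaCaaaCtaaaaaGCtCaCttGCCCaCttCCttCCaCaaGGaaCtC

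**Figure D2:**
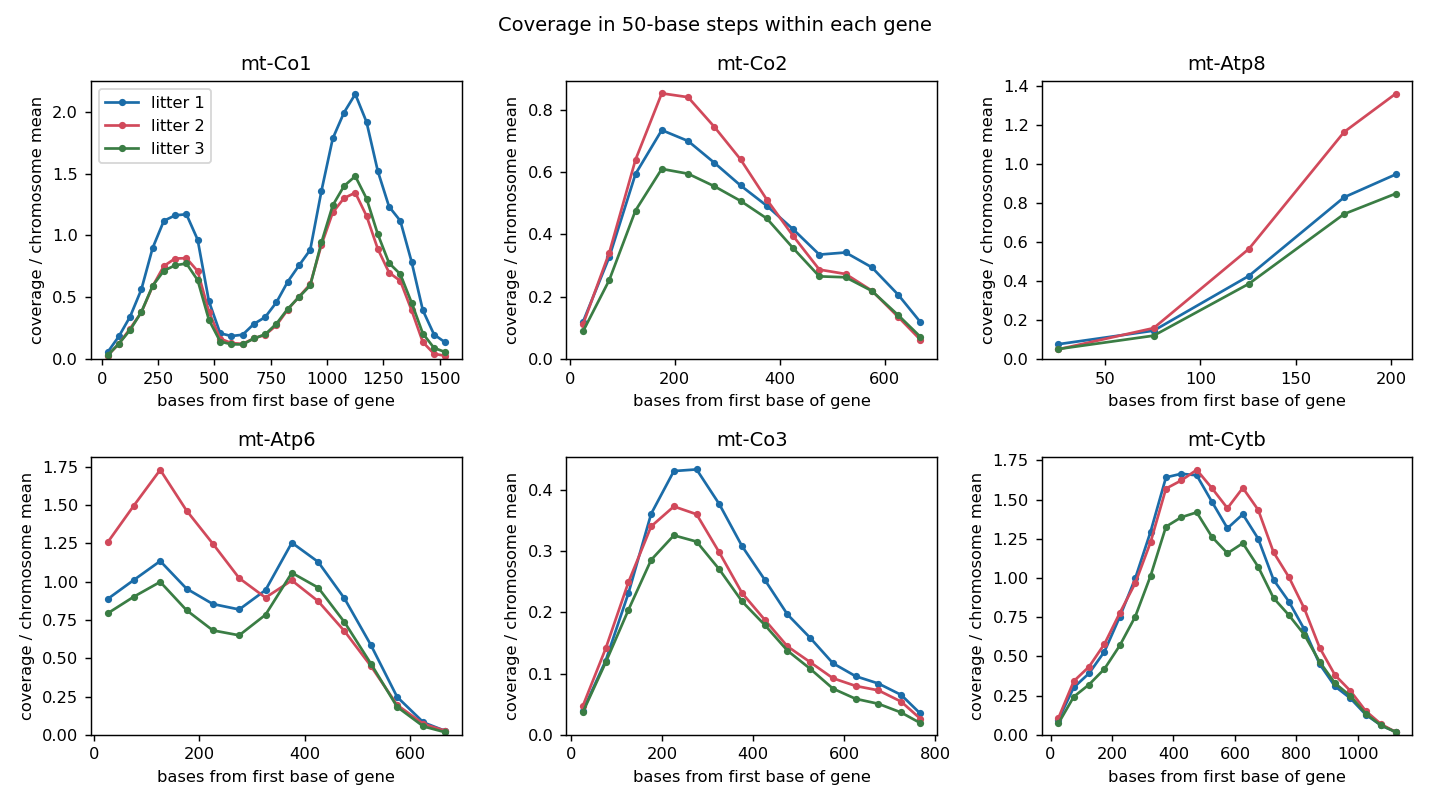
Coverage in 50-base steps within each of the 6 genes, relative to the mean of the chromosome, against the base of the gene; lines are the 3 litters. mt-Co1 shows humps at bases 351 to 400 and 1101 to 1150 with a trough between them, mt-Atp8 climbs to its end, and mt-Atp6 peaks at bases 101 to 150 in litter 2 and at bases 351 to 400 in litters 1 and 3.

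The first step was below the gene's own mean in all litters for 5 of 6 genes, against 7 of 7 complex I genes; the exception was mt-Atp6, which begins inside mt-Atp8. The last step was below it for 5 of 6 genes, against 4 of 7; the exception was mt-Atp8, which ends inside mt-Atp6. The coefficient of variation over steps had a median of 68.4% (54.9% to 84.4%) in the 6 genes and 45.1% (37.3% to 85.4%) in the complex I genes, ranges that overlap. The median ratio of highest to lowest step was 32.3 and 34.1. A step's log2 coverage was weakly related to its G and C content over the 103 steps of the 6 genes (r = 0.143, 0.149 and 0.152 in litters 1 to 3). Within genes r ran from 0.439 to 0.460 in mt-Cytb over its 23 steps and from 0.282 to 0.319 in mt-Atp6 over 14. In mt-Atp8 it ran from -0.38 to -0.36 over 5 steps. These include the short remainder at bases 201 to 204, inside mt-Atp6, with 0.0% G and C and the highest coverage. The sign in mt-Atp8 is therefore not read as a trait of the gene. The pooled value joins genes that differ, and steps of a gene share their library and are no replicates.

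The weight of each gene lay to one side, the same side in every litter. The mean coverage of the bases before a gene's midpoint over that of the bases after it was 0.506 ± 0.0391 in mt-Co1 and 0.150 ± 0.0272 in mt-Atp8, with the bases after the midpoint higher in 3 of 3 litters. In mt-Atp8 those bases include the 43 shared with mt-Atp6, at a mean level of 0.967 against 0.256 for its own bases. A ratio over its own bases alone was not computed. All bases of a gene were used here. The ratio was 2.40 ± 0.196 in mt-Co3, 1.78 ± 0.269 in mt-Co2 and 1.47 ± 0.110 in mt-Cytb, with the bases before the midpoint higher in 3 of 3. In mt-Atp6 it was 1.45, 2.58 and 1.5 in litters 1 to 3 (1.84 ± 0.639), and litter 2 stood apart. For each of the 6 genes the exact two-sided sign-flip test gave p = 0.25, the smallest that 3 litters allow, and 0.25 after Benjamini-Hochberg adjustment over the 6 genes. mt-Co1 and mt-Co3 thus leaned in opposite directions although both belong to complex IV.

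Fewer alignments ran across most gene ends than lay just inside them. The crossing share is the number of alignments per start position that cover at least 10 bases on both sides of the end, as a percentage of the number per start position in the 200 bases inside it. By the mean over litters it was lowest where mt-Cytb ends against mt-Tt: 2.26%, 1.31% and 3.51% (2.36% ± 1.10, SD, n = 3), from 112, 66 and 176 crossing alignments, although the start of mt-Co1 was lower in litters 2 and 3. At the start of mt-Cytb, against mt-Te, it was 3.91%, 2.48% and 3.79% (3.39% ± 0.793). At the start of mt-Co1, against mt-Ty, it was 5.88%, 1.17% and 2.10% (3.05% ± 2.50), with litter 1 far above the others, and at the start of mt-Co2, against mt-Td, 5.87%, 1.99% and 4.14% (4.0% ± 1.95). mt-Cytb thus had low shares at both of its ends.

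At the 3′ ends of mt-Co1, mt-Co2 and mt-Co3 more alignments crossed. For mt-Co1 into mt-Ts1 the share was 29.9%, 19.1% and 22.7% (23.9% ± 5.52). For mt-Co2 into mt-Tk it was 30.4%, 17.3% and 23.5% (23.8% ± 6.56). For mt-Co3 into mt-Tg it was 16.0%, 10.5% and 15.1% (13.8% ± 2.96). The order litter 1, litter 3, litter 2 held at all 3 of these ends with 200 bases inside the end; with 100 it held at mt-Co2 and not at mt-Co1 or mt-Co3. It held with both where mt-Atp8 begins after mt-Tk, with 22.2%, 7.69% and 16.8% (15.6% ± 7.34). Coverage over the tRNA genes themselves was low: 0.0734, 0.0311 and 0.0439 of the chromosome mean in mt-Tk, 0.0695, 0.0143 and 0.0273 in mt-Ts1, 0.0119, 0.00652 and 0.00733 in mt-Tg and 0.00221, 0.000956 and 0.00397 in mt-Tt. Litter 1 was the highest in 6 of the 7 tRNA genes that adjoin the 6 genes, and litter 3 in mt-Tt.

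The single end with a share above 100% was the 3′ end of mt-Atp8, which lies inside mt-Atp6: 299%, 335% and 303% (312% ± 19.9). Of all alignments touching mt-Atp8, 59.0% in litter 1 (95% Wilson interval 58.7 to 59.3), 63.3% in litter 2 (63.0 to 63.6) and 59.9% in litter 3 (59.5 to 60.2) ran past its end, intervals that cover counting error only. With 100 bases inside the end in place of 200, the share at the 3′ end of mt-Atp8 was 145% ± 4.96. At the start of mt-Atp6, inside mt-Atp8, the share was 67.4%, 61.9% and 69.3% (66.2% ± 3.85). The other 11 of 12 ends were below 100% in 3 of 3 litters with either setting. The size of the share depended on it: with 100 bases it moved by over 1.5 times at 10 of 12 ends, 9 of them upward, to 57.6% ± 18.8 at the start of mt-Atp8, 50.6% ± 4.47 at the end of mt-Co1, 40.3% ± 8.52 at the end of mt-Co2, 10.7% ± 2.24 at the end of mt-Atp6, 9.03% ± 6.66, 7.55% ± 3.49, 7.57% ± 1.87 and 5.44% ± 1.45 at the starts of mt-Co1, mt-Co2, mt-Co3 and mt-Cytb, and 5.10% ± 2.31 at the end of mt-Cytb. At each of the 12 ends the exact two-sided sign-flip test gave p = 0.25, and 0.25 after Benjamini-Hochberg adjustment over the 12.

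**Figure D3:**
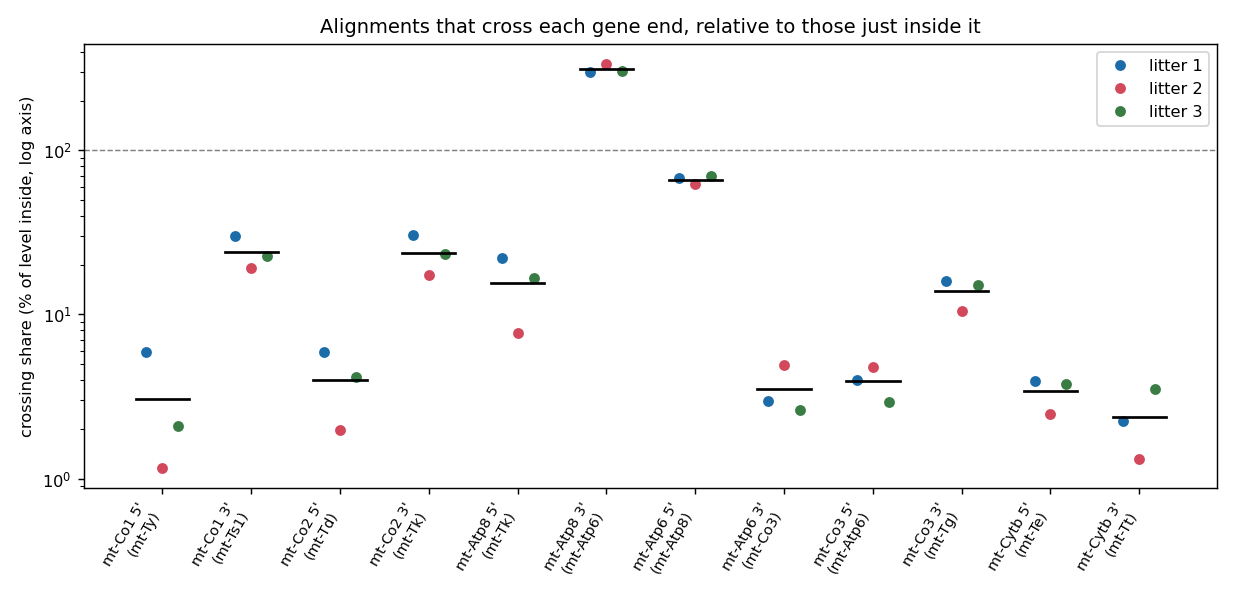
Crossing share at the 12 ends of the 6 genes, with the neighbouring gene in brackets, as a percentage of the alignments per start position in the 200 bases inside the end, on a log axis; points are litters, bars are means and the dashed line is 100%. The 3′ end of mt-Atp8 lies near 312%, the start of mt-Atp6 near 66.2%, and the mt-Atp6 to mt-Co3 junction (3.49% and 3.90%) close to the 5′ ends of mt-Co1, mt-Co2 and mt-Cytb (3.05%, 4.0% and 3.39%).

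Along the stretch without a tRNA gene, coverage ran on from mt-Atp8 into mt-Atp6 and broke before mt-Co3. The 43 shared bases, shown above in capitals, stood at 0.877, 1.24 and 0.785 of the chromosome mean. That was 3.75 ± 0.281 times the level of the own bases of mt-Atp8, and mt-Atp6's own bases stood at 0.820 ± 0.0926 times the shared bases (SD, n = 3). At the next junction, a single shared base and no tRNA gene, 357, 408 and 230 alignments crossed the end of mt-Atp6 with at least 10 bases on each side. The crossing share there was 2.95%, 4.89% and 2.63% of the level inside mt-Atp6 (3.49% ± 1.22). Seen from mt-Co3 it was 4.01%, 4.76% and 2.93% (3.90% ± 0.921). Leaving out the first 72 bases of mt-Atp8 and the last 72 of mt-Co3, the base with the lowest mean coverage in the stretch was chrM:8608, 1 base past the first base of mt-Co3, with 0.0126, 0.0162 and 0.00950; the lowest base of litter 1 alone lay 3 bases past it, and those of litters 2 and 3 at 1 base. The deepest point between these limits thus fell at the junction of the printed TAA of mt-Atp6 and ATG of mt-Co3 in every litter. The level of mt-Atp6 was 3.75, 4.96 and 4.25 times that of mt-Co3 (4.32 ± 0.609) although no tRNA gene lies between them.

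The 3′ crossing share of mt-Atp6 was 0.219, 0.596 and 0.203 times the geometric mean of the 3′ ends of mt-Co1, mt-Co2, mt-Co3 and mt-Cytb, which border tRNA genes (below 1 in 3 of 3 litters; exact two-sided sign-flip test, p = 0.25, 0.3125 after Benjamini-Hochberg adjustment over 5 ratios of the stretch). The share of mt-Cytb was lower than that of mt-Atp6 in 2 of 3 litters, so the difference does not hold against each of these ends. The end of mt-Co1 borders a tRNA gene on the opposite strand, mt-Ts1, and the ratio without mt-Co1 was not computed. On the log2 scale the ratio was -1.75, and it was -0.85 with 100 bases inside the end in place of 200 and -2.24 without litter 2. At the start of mt-Co3 the share was 0.542, 1.85 and 0.605 times that of the starts of mt-Co1, mt-Co2, mt-Atp8 and mt-Cytb, with no common direction (p = 1.0, exact two-sided sign-flip test). Of the tRNA genes at these starts, mt-Ty before mt-Co1 and mt-Te before mt-Cytb also lie on the opposite strand. The 3 ratios of levels along the stretch each had the same direction in 3 of 3 litters and the smallest p, 0.25 (0.3125 adjusted, exact two-sided sign-flip test).

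**Figure D4:**
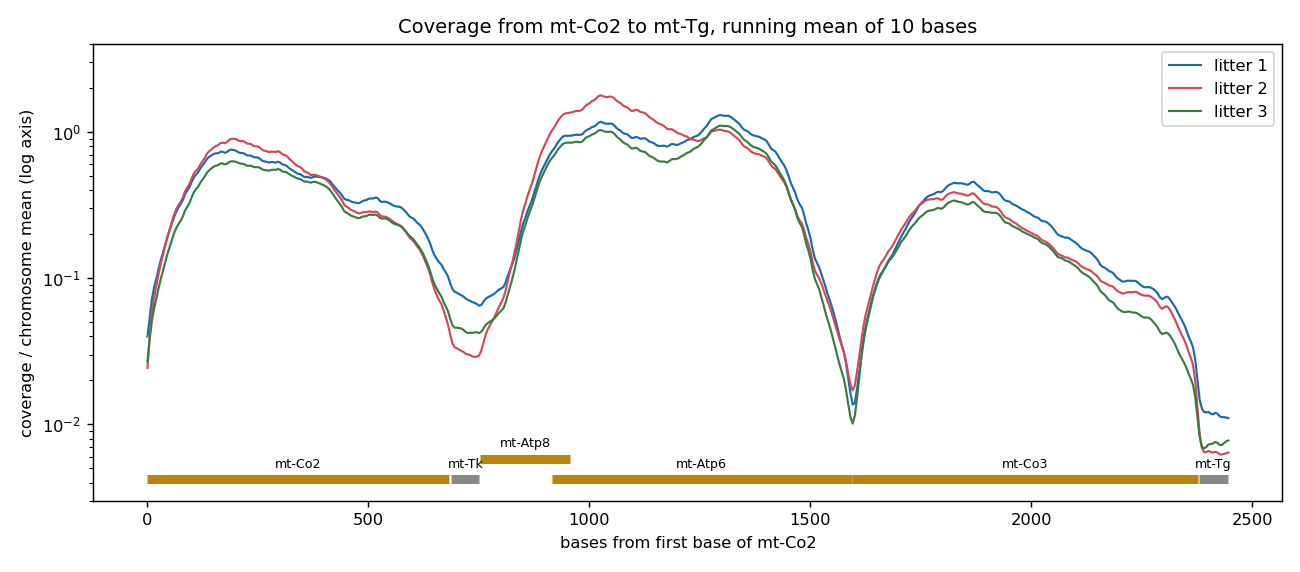
Running mean of coverage over 10 bases from mt-Co2 to mt-Tg, relative to the mean of the chromosome, on a log axis, against the distance from the first base of mt-Co2; lines are the 3 litters and bars below mark the genes. Coverage dips over mt-Tk (mean 0.0495), stays high across the overlap of mt-Atp8 and mt-Atp6 (0.967) and falls to 0.0128 at the mt-Atp6 to mt-Co3 junction; it is lower again over mt-Tg (0.00858), past the stretch.

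Alignments that touched a member and the next gene beyond a tRNA were found too. With 72 bases, an alignment can span the 65 bases of mt-Tk from mt-Co2 to mt-Atp8 at 2 start positions, and 180, 69 and 90 alignments did so (56.5 ± 29.5 per start position). From mt-Co3 across mt-Tg to mt-Nd3, 38, 19 and 13 did so at 3 start positions (7.78 ± 4.35). Across the junction of mt-Atp6 and mt-Co3, 757, 852 and 534 touched both genes at 70 start positions (10.2 ± 2.33 per start position). Litter 1 had the most at both tRNA genes and litter 2 the most at the junction without one. The spans across mt-Tk and across the mt-Atp6 to mt-Co3 junction both lie within chrM:6394-9387, the stretch whose start counts recur on chromosome 1. So do the 3′ end of mt-Co1, the start of mt-Co3 and both ends of mt-Co2, mt-Atp8 and mt-Atp6. The source of the alignments that cross these ends was not tested.

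Where alignments end shows how the signal left at a gene's end changes past its last base. The number of alignments ending in bases 4 to 23 past a gene's last base was compared with the number ending in its last 20 bases. For mt-Cytb it was 4.71%, 3.66% and 9.40% (5.92% ± 3.06, SD, n = 3), for mt-Atp6 8.94%, 13.5% and 8.69% (10.4% ± 2.69), and for mt-Co3 18.7%, 11.6% and 16.9% (15.7% ± 3.70). For mt-Co2 it was 53.0%, 37.2% and 43.9% (44.7% ± 7.92). The values of mt-Co2 lay above those of the other 3 genes in every litter. For mt-Co1 the value was 60.8% ± 1.73 and for mt-Atp8 123% ± 1.62, but both change direction with windows of 10 bases, so neither gene is given a direction here. The last base of mt-Cytb, the lone T printed above, thus stands at a fall of the remaining signal, as does the TAA of mt-Atp6. In both genes coverage had already declined before that base. In mt-Cytb 43.55, 35.55 and 38.85 alignments ended per base inside, against 2.05, 1.3 and 3.65 past it. In mt-Atp6 it was 80.0, 65.35 and 51.2 against 7.15, 8.8 and 4.45.

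The litters differed in some members more than in others. The coefficient of variation over the 3 litters was 26.8% for mt-Co1, 17.6% for mt-Atp8, 15.2% for mt-Co3, 14.8% for mt-Atp6, 11.6% for mt-Co2 and 11.4% for mt-Cytb. That of mt-Co1 was 2.58% without litter 1, that of mt-Co2 2.46% and that of mt-Cytb 4.71% without litter 3, that of mt-Co3 10.1% without litter 1, that of mt-Atp6 8.49% without litter 3 and that of mt-Atp8 9.91% without litter 2. These are the lowest values with a litter left out. The highest were 31.6% for mt-Co1, 24.2% for mt-Atp8, 21.3% for mt-Co3, 20.9% for mt-Atp6, 15.9% for mt-Cytb and 15.7% for mt-Co2. Each of them rests on 2 litters. The median over the 6 genes was 15%, with 15.8% without litter 1 and 9.88% without litter 3. Measured against the mean of the 13 protein genes in place of that of the chromosome, the spreads were 20.7% for mt-Co1, 12.1% for mt-Atp8, 8.26% for mt-Atp6, 7.73% for mt-Cytb, 7.35% for mt-Co3 and 6.27% for mt-Co2 (median 8.0%).

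On that scale mt-Cytb stood at 1.29, 1.42 and 1.5, mt-Atp6 at 1.26, 1.47 and 1.44, mt-Co1 at 1.31, 0.863 and 1.18, mt-Co2 at 0.677, 0.727 and 0.768, mt-Atp8 at 0.395, 0.502 and 0.469 and mt-Co3 at 0.335, 0.296 and 0.338 in litters 1 to 3. mt-Co1 was then low in litter 2 rather than high in litter 1 alone. The litter that stood apart for mt-Co1 thus depends on the base of the ratio, and its spread remained the largest of the 6 genes on both. For mt-Cytb and mt-Atp6 the order of the litters changed as well. On this scale mt-Cytb was the highest in litter 3 and mt-Atp6 the lowest in litter 1.

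Alignments in 5 of the 6 genes recurred on nuclear sequence with the same counts. Those of mt-Co2, mt-Co3, mt-Atp6 and mt-Atp8 lay in reverse orientation on chromosome 1 (mm9 chr1:24620030-24623023), with start counts equal at 613 of 613, 713 of 713, 610 of 610 and 133 of 133 start positions in all 3 litters. Beyond the end of this copy that matches the middle of mt-Co1, there were 0, 0.001 and 0 starts per base in the next 1 kb, against 473, 376 and 352 inside it. The 1 kb on the other side was not empty, with 335, 313 and 217 starts per base. Another stretch with recurring counts (mm9 chr1:24618374-24619581) reaches into that side. In mt-Co1 the copy reached from base 1067 to the gene's end. At every start position of mt-Co2, mt-Co3, mt-Atp6 and mt-Atp8, the same number of alignments was thus counted at both places. The files do not say which of the places a read came from. RefSeq (GRCm38) lists a pseudogene of chromosome 1, Gm10925, whose synonym is mt-Atp6 and whose length is the 681 bases of mt-Atp6.

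In mt-Co1, 607 of 1474 start positions had equal counts on nuclear sequence in all litters. Those 607 starts held 49.2%, 45.99% and 48.3% of its alignments in litters 1 to 3. Taken litter by litter, starts with counts within 5% of each other held 71.1% ± 1.18. A second copy on chromosome 2 (mm9 chr2:22443079-22445720, reverse) followed the whole of mt-Co1 and bases 1 to 404 of mt-Co2. Its starts came to 89.97% ± 0.0763 of those of mt-Co1, while exactly equal counts held 14.4% ± 0.222. In litters 1 to 3, the chromosome 2 copy held 485, 300 and 321 starts per base. The 1 kb before it held 28.2, 17.9 and 19.9, and the 1 kb after it 119, 107 and 62.6. mt-Cytb was the exception, with 0 of 1073 start positions equal in all litters. Over the 6 genes, 50.9%, 50.3% and 50.2% of alignments lay at starts with equal nuclear counts in the same litter (50.5% ± 0.385). The share of reads from nuclear sequence in the levels of the other 5 genes was not tested.

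**Figure D5:**
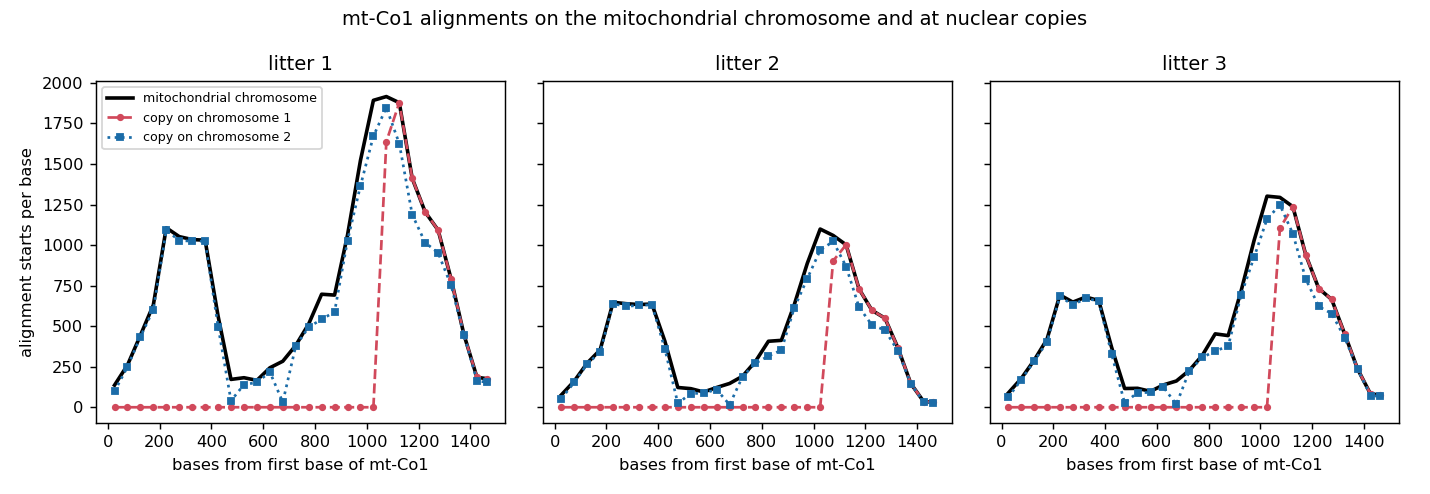
Alignment starts per base in 50-base steps of mt-Co1 on the mitochondrial chromosome and at the matching places on chromosomes 1 and 2, in each of 3 litters, against the base of mt-Co1. The chromosome 1 copy is at 0 up to about base 1067 and follows the mitochondrial line from there on, and the chromosome 2 copy follows it along the whole gene with dips.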

How the data were processed

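Embryo RNA of 3 litters was amplified by SPIA before cDNA shearing and Illumina library construction, per the labels' protocols. The submitters' processing notes name Bowtie and mm9; how it treated reads that fit several places is not given in the sources used here and bears on every level. The deposited values are signal, namely unscaled coverage per base, per the file headers. From 1000000 up the authors' coverage holds 6 digits, which touches no base past 2497 and none of the 6 genes.

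Alignments of 72 bases were recovered from the steps of the coverage, with 0 negative starts past base 2497 in every litter. This recovery and the crossing share were tested on simulated data. For the share, simulated starts were spread evenly on both sides of the cut. How the share behaves where coverage slopes towards a gene end, as it did here, was therefore not tested. Gene positions and sequences are those of GENCODE M21 (GRCm38). Its mitochondrial chromosome is held to be that of mm9, from general knowledge; the sequences were not compared, and the length in the files is 16299. With no mm9 annotation used, nuclear subunit genes and cell type markers were not analysed here.

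The 6 genes and the lists were chosen with earlier results of these data known. All 6 were named, with the gene most like each by level, the adjoining genes and the highest and lowest steps; other steps were named after their values were seen. Litters were the replicates, and the sign-flip permutation test of log2 ratios was exact and two-sided, with 0.25 as the smallest p of 3 litters. A nuclear copy needed 20 start positions with equal counts, each with counts over the 3 litters summing to at least 300. Alternatives were the step, overhang, flank, gene bases, base of the level, distinct starts and leaving out each litter. The fall of alignment ends, the spans across tRNA genes and other gene bases for the ratios of the stretch were added with the data in view. Tools were Python 3.11.15 with numpy 2.4.6, pandas 2.3.3, scipy 1.17.1, numba 0.67.0 and matplotlib 3.10.9.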

Additional observations from a re-analysis of the deposited data

How the results depend on the processing

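Counting each start position a single time erased the differences, since every start within the 6 genes was used: the median gene level became 1.02 in place of 0.513, the median spread between litters 0.692% in place of 15%, and the median log2 crossing share 0.0 in place of -3.69. Against the 13 protein genes the median level was 0.912 and the spread 8.0%. The median ratio of highest to lowest step, 32.4, was 60.7 with 25-base steps, 17.0 with 100-base steps and 6.83 without steps within 72 bases of an end. The median log2 crossing share was -2.91 with 100 bases inside the end. Within a tolerance of 5%, 58.6% of alignments had equal nuclear counts, against 50.5%.

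Leaving out a litter gave a median level of 0.465 to 0.545, a median spread of 9.88% to 15.8%, a step ratio of 29.4 to 35.7, a log2 ratio across the midpoint of 0.58 to 0.69, a log2 crossing share of -3.85 to -3.51, a log2 ratio of the mt-Atp6 end to tRNA ends of -2.24 to -1.47 and equal nuclear counts for 50.3% to 50.6%. The log2 ratio at the start of mt-Co3, -0.24, was -0.80 to 0.0808, turning to 0.0808 without litter 1 and to 0.00141 without litter 3. With windows of 10 bases the log2 fall of alignment ends turned from -0.72 to 0.11 in mt-Co1 and from 0.29 to -0.29 in mt-Atp8; the cause was not tested. The remaining values for single genes kept their direction in all alternatives run, except where distinct starts left a log2 crossing share of 0.0. The profile without end steps could not be had for mt-Atp8, nor could its level or its ratio across the midpoint without 72 end bases. In the level ratio of mt-Atp6 to mt-Atp8, that setting therefore shortened mt-Atp6 alone. Whether the low level of mt-Atp8 depends on its first bases was not tested. No paired analysis was possible because there is 1 group. No p here could pass 0.05 in any setting, so the alternatives bear on direction and size alone.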
